A study of Mus musculus with 18 samples.

Results

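Brain microglia of embryonic day 18.5 (E18.5) were compared with brain microglia of embryonic day 12.5 (E12.5), in 6 libraries of the later age and 4 of the earlier one, out of 18 libraries in the series. A library entered when its source label named the brain at one of these ages. A well entered when it had received 1 sorted cell and held at least 300 unique molecular identifiers (UMIs, tags that count each captured transcript once) on genes. This kept 992 of 1140 single-cell wells at E18.5 and 718 of 760 at E12.5, out of 3012 cells kept in the whole series. Both ages came from untreated mice of the strain CX3CR1-GFP+ C57BL/6J, which carry a green fluorescent reporter for the fractalkine receptor. The E12.5 cells were sorted as CD45+CD11B+CX3CR1-GFP+ and the E18.5 cells as CD45intCD11BintCX3CR1-GFP+, so the gate changed together with age. The study sorted single myeloid cells from yolk sac and brain into plates and read the 3' ends of their polyadenylated RNA by MARS-seq, in order to follow microglia from the embryo to the adult. Yolk sac cells of E12.5 and adult brain cells make up the other libraries.

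Microglia are the resident macrophages of the brain. They descend from early macrophages that enter the neural tube before the blood-brain barrier closes, divide there, and take on a program of surface receptors, lysosomal enzymes and secreted factors that marks them off from other macrophages. Immediate early genes, which code for transcription factors and feedback inhibitors, need no new protein to be switched on and respond quickly to growth factors and other stimuli.

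In the table of wells 1 subject number stands for every library of an age, and each plate holds 2 of the libraries. P-values therefore reflect library-to-library spread only, and this spread may be technical. Total UMIs per library ran from 143876 to 217647 at E18.5 and from 228467 to 534219 at E12.5. The median UMIs per cell, averaged over libraries, were 988 ± 172 at E18.5 and 1861 ± 750.3 at E12.5 (SD, n = 6 and 4, two-sided exact permutation test p = 0.0286). All E18.5 libraries were sequenced in batch SB31, E12.5 replicates 1 and 2 in batch SB25 and E12.5 replicates 3 and 4 in batch SB29, per the well annotation. No batch held brain cells of both ages, so batch and age cannot be told apart within a batch. Yolk sac replicates 3 and 4 were sequenced in the same batch as the E18.5 cells and tie the batches together in a fit with batch as a covariate.

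The cells carried microglial transcripts at both ages. Fcrls, an Fc receptor-like protein of microglia, ran from 4764 to 5930.1 CPM with a median of 5065 at E18.5 and lay at 2053, 2083, 2378 and 2267 CPM in E12.5 replicates 1 to 4. CPM is the level of a gene as UMIs per 1000000 UMIs of its library. E12.5 values are given throughout in the order of replicates 1 to 4, E18.5 values as the range and median of 6 libraries, and means as mean ± SD (n = 6 and 4). Markers of other brain cells were low, and some were higher at E12.5. Gfap, Aqp4 and Cldn5 had 0 UMIs at both ages. Lymphocyte and dendritic cell markers summed to 133 to 322 CPM at E18.5 and 144 to 161 CPM in E12.5 libraries. Of these, Cd3e had 0 UMIs at both ages, and Flt3, too low to test, had 1 at E18.5 and 49 at E12.5. Cd79b, the tested gene of that list, had 247 and 169 UMIs and was called higher (log2 fold change 1.08). Neuronal markers summed to 16.6 to 100.96 CPM at E18.5 and 89.9 to 149 CPM in E12.5 libraries, radial glial and astrocyte markers, which include Nes, to 100.96 to 206 CPM at E18.5 and 416 to 526 CPM, and endothelial and pericyte markers to 63.1 to 159 CPM at E18.5 and 21.9 to 291 CPM. Oligodendrocyte markers summed to at most 50.5 CPM in any E18.5 library and 43.8 CPM in any E12.5 library. Named after their counts were seen, the neuronal genes Sox11 and Tubb3 had 10 and 2 UMIs over all E18.5 cells and 71 and 33 over all E12.5 cells, and the collagen gene Col1a1 had 0 and 81. The part of such transcripts in the differences between the ages was not tested. A level of 0 over a group allows up to 2.82 CPM (E18.5) or 2.01 CPM (E12.5), from a floor of 3 counts that covers counting error only. In such sums over cells, fewer cells that express a gene and less RNA per cell cannot be told apart.

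Of 4883 tested genes, edgeR's quasi-likelihood test called 543 higher at E18.5 (11.1%) and 652 lower (13.4%), at a Benjamini-Hochberg adjusted p under 0.05. For 8.11% of tested genes every E18.5 library lay above every E12.5 library, and for 10.6% every E18.5 library lay below. Asking also for a log2 fold change of at least 1 in size left 6.74% higher and 4.96% lower. The median log2 fold change over all tested genes was −0.03, with positive values meaning higher at E18.5. With sequencing batch as a covariate, 148 genes were called higher and 184 lower. In 68 of the genes called lower, all 12 libraries of batch SB31, including those of yolk sac and adult brain, lay below all 6 libraries of the other batches. The same held upward for 19 of the genes called higher. Of the genes named below, Aldoa, Apoc1, Cct7, Cdca8, Coro1a, Nme1, Polr1d, Rac2, Rps26 and Uqcrq had the downward pattern. So had Cdk4, Gpx1 and the Ccnd2 row, and Atf4, Il6ra, Rb1 and Txnip had the upward one. In the plot of fold change against level, most immediate early genes stand near the upper edge and most respiratory chain genes lie in a band below 0.

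**Figure D1:**
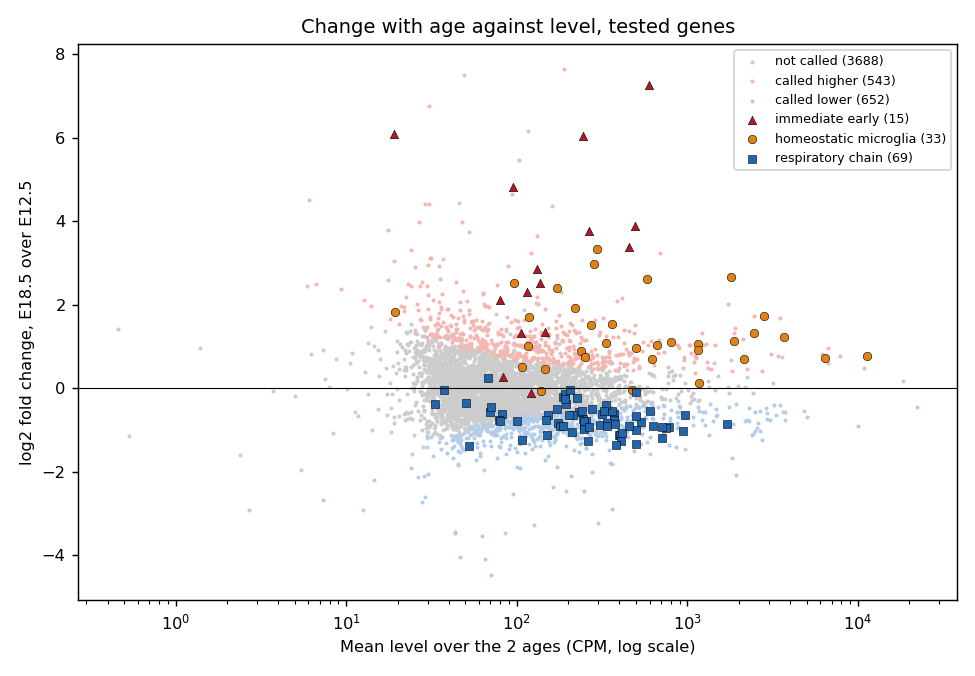
Log2 fold change of each tested gene, E18.5 over E12.5 (vertical axis), against its mean level in CPM over the 2 ages (horizontal axis, log scale). Grey points are genes that were not called, light red and light blue points are genes called higher and lower, and filled markers are the immediate early genes, the homeostatic microglia genes and the nuclear respiratory chain genes. The immediate early genes reach 7.26, while 49 of 69 respiratory chain genes were called lower.

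Immediate early genes had the highest median rise of all gene lists other than cell type markers. Of 15 tested among 21 listed, 13 rose and 0 fell, against 11.1% of all tested genes higher, with a median log2 fold change of 2.85. Summed over the list, E18.5 libraries held 4997 to 6483 CPM and E12.5 libraries 569 to 763 CPM. Yolk sac replicates 3 and 4, of the same sequencing batch as the E18.5 cells, held 1016 and 953 CPM. With batch as a covariate 10 members were called higher.

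The promoters of 5 members of the immediate early and feedback lists are shown. They were picked among the genes that rose because each holds a match to a motif known from stimulus-driven transcription. The matches shown were thus fixed by the choice, and a link between motif and rise was not tested. Each is the stretch of 250 bases before the start site from RefSeq's GRCm38.p6, written 5′ to 3′ on the gene's strand, with matches in capitals. The Fos promoter (chr12:85473640-85473889, plus strand) holds a match to the NF-kB motif on the opposite strand. Those of Dusp1 (chr17:26508473-26508722, minus strand), Btg2 (chr1:134079156-134079405, minus strand) and Ppp1r15a (chr7:45526269-45526518, minus strand) hold the cyclic AMP response element TGACGTCA. The promoter of Zfp36 (chr7:28379229-28379478, minus strand) holds a CArG box, the site of serum response factor.
Fos: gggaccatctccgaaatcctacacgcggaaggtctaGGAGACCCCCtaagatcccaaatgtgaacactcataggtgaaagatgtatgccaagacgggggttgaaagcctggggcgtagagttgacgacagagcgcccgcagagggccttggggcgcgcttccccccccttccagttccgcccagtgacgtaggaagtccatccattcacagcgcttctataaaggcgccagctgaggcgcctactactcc
Dusp1: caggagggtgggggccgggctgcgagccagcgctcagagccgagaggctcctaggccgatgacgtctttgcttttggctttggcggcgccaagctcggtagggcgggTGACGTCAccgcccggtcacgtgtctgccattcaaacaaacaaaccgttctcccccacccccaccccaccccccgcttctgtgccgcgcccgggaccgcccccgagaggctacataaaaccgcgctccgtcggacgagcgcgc
Btg2: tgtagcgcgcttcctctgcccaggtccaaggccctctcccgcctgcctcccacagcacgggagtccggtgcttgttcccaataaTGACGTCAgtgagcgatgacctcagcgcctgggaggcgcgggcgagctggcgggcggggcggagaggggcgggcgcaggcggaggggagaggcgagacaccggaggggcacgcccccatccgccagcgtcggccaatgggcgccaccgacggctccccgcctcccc
Ppp1r15a: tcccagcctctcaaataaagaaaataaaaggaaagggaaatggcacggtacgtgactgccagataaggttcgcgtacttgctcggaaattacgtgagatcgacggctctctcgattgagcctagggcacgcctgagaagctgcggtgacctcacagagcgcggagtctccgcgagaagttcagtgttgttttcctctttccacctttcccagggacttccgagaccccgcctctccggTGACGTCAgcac
Zfp36: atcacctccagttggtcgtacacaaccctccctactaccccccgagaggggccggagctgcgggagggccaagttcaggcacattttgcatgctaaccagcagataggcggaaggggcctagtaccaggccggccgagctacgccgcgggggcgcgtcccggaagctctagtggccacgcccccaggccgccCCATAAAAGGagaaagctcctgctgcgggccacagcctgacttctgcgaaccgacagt

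A promoter was found for 13 of the 15 tested immediate early genes. On both strands of this window, TGACGTCA was present in 2 of them, against 1.77% of 27025 genes with a promoter and 3.19% of the tested genes that have one. The AP-1 motif TGANTCA was in none of them, against 5.00% of tested genes, and the NF-kB motif in 3, against 10.9%. The CArG box was in 1 of them, against 1.43% of tested genes. In the feedback list, which shares members with this one, 15 of 17 tested genes had a promoter. Among these, TGACGTCA was in 2, the AP-1 motif in 2, the NF-kB motif in 1 and the CArG box in 1. The cyclic AMP response element does not contain the AP-1 motif, so no match was counted under both. In the cytosolic ribosomal protein list, where 27 of 55 tested rows fell, TGACGTCA was in 6 of 40 promoters.

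Fos, which pairs with Jun proteins to form the AP-1 transcription factor, ran from 1007 to 1493 CPM with a median of 1164 at E18.5 and lay at 2.02, 15.0, 8.57 and 0 CPM at E12.5. Its log2 fold change was 7.26 (SE 0.33, edgeR adjusted p = 6.29e-17), and it was 8.31 without E12.5 replicate 2. The groups lie far apart. Fosb, a close relative, was at 0 in every E12.5 library and ran from 22.1 to 55.6 CPM with a median of 40.5 at E18.5. Dusp1, whose promoter is shown above and whose product switches off MAP kinases, was at 8.09, 5.62, 8.57 and 0 CPM at E12.5 and ran from 127 to 239.8 CPM with a median of 182 at E18.5. Ier2, a nuclear protein of the early response, ran from 104 to 303 CPM with a median of 244 at E18.5 and lay at 22.3, 31.8, 51.4 and 26.3 CPM in the E12.5 libraries (log2 fold change 2.85 ± 0.31 SE, adjusted p = 2.28e-09 by edgeR). The antiproliferative gene Btg2 ran from 149 to 308 CPM with a median of 195 at E18.5, against 95.1, 99.2, 64.3 and 61.3 CPM in the E12.5 libraries (log2 fold change 1.36 ± 0.22 SE, adjusted p = 9.62e-06 by edgeR). Zfp36, an mRNA-destabilising protein, was at 22.6 and 40.8 CPM in yolk sac replicates 3 and 4, near its E12.5 brain level of 35.3 ± 10.5 CPM and far below its 496 ± 133 CPM at E18.5 (SD, n = 4 and 6). The exceptions in the list were Klf2 and Atf3, a stress-induced factor at 55.1 to 149 CPM with a median of 81.7 at E18.5 and 105, 84.2, 51.4 and 52.5 CPM in the E12.5 libraries (log2 fold change 0.26 ± 0.31 SE, adjusted p = 0.589 by edgeR).

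**Figure D2:**
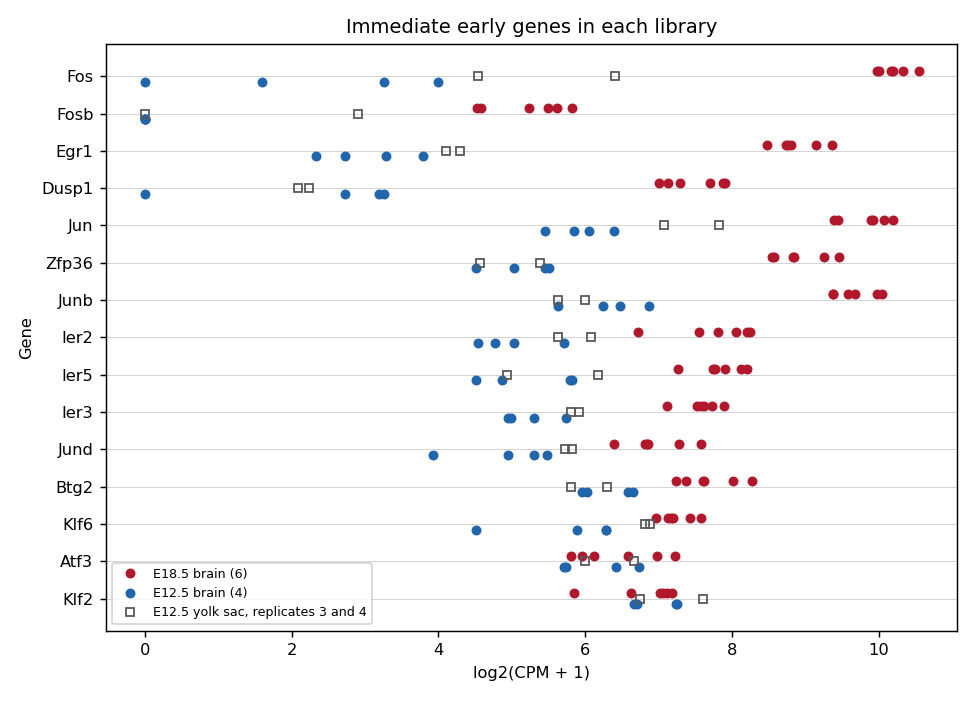
Level of each tested immediate early gene in every library, as log2 of CPM plus 1 (horizontal axis), with 1 row per gene. Red points are the 6 E18.5 brain libraries, blue points the 4 E12.5 brain libraries and open squares yolk sac replicates 3 and 4, which share the sequencing batch of the E18.5 cells. For 13 of 15 genes all red points lie to the right of all blue points, as for 8.11% of all tested genes.

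The early transcripts were found in many cells. After each cell was thinned to 300 UMIs, 42.0% to 49.7% of the cells of an E18.5 library held at least 2 UMIs of the list, against 1.72% to 3.74% at E12.5. Without thinning the shares averaged 85.4% and 35.5%, over cells that differ in depth between the ages. The lowest E18.5 library thus held a larger share than the highest E12.5 library at matched depth.

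Genes that damp signalling rose with them. Of 17 stress-induced feedback regulators, a list that includes Dusp1 and Zfp36, 14 rose and none fell, with a median log2 fold change of 1.51. Rhob, a small GTPase of endosomes that is itself quickly induced, ran from 424 to 658 CPM with a median of 487 at E18.5 and lay at 48.6, 78.6, 90.0 and 35.0 CPM in the E12.5 libraries (log2 fold change 2.98 ± 0.21 SE, adjusted p = 2.70e-14 by edgeR). Socs3, an inhibitor of cytokine receptor signalling, ran from 34.4 to 99.6 CPM with a median of 63.7 and lay at 12.1, 7.49, 4.28 and 4.38 CPM (log2 fold change 2.93 ± 0.46 SE, adjusted p = 5.83e-06 by edgeR). For both genes the ages did not overlap, and yolk sac replicates 3 and 4 had Rhob at 29.1 and 11.1 CPM. Ppp1r15a, which restores translation after stress, ran from 17.2 to 122 CPM with a median of 84.0 at E18.5 with E12.5 values of 0, 13.1, 25.7 and 17.5 CPM, and the highest E12.5 library lay above the lowest E18.5 library (log2 fold change 2.55 ± 0.60 SE, adjusted p = 0.00188 by edgeR). Zfp36l1, a relative of Zfp36, ran from 48.7 to 170 CPM with a median of 84.5 against 18.2, 26.2, 38.6 and 21.9 CPM (log2 fold change 2.01 ± 0.36 SE, adjusted p = 4.27e-05 by edgeR). The most abundant member that did not pass was Rgs2, a regulator of G protein signalling, with means of 671 ± 89.1 (E18.5) and 520.3 ± 47.3 CPM (E12.5) (edgeR adjusted p = 0.059), and it passed without E12.5 replicate 3 or E18.5 replicate 1 in turn, at 0.44 to 0.47. Where batch entered as a covariate, edgeR gave 6 higher and 0 lower in the feedback list.

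Homeostatic microglia genes, which set resting microglia apart, rose in 27 of 33 tested cases and fell in none, with a median log2 fold change of 1.08. Their sum ran from 55523 to 60396 CPM at E18.5 and from 27191 to 28716 CPM at E12.5. Rhob is counted both in this list and in the feedback list. Ltc4s, which makes the lipid mediator leukotriene C4, ran from 819.9 to 1106 CPM with a median of 1023 at E18.5 and lay at 111, 149.8, 179.96 and 219 CPM in the E12.5 libraries (log2 fold change 2.61 ± 0.19 SE, adjusted p = 2.54e-14 by edgeR). Fcrls rose by 1.23 on the log2 scale (edgeR adjusted p = 5.53e-10). Neither gene had an E12.5 library as high as its lowest E18.5 library. Bin1, a membrane-bending protein abundant in microglia, did not pass, with means of 1216 ± 109 (E18.5) and 1109 ± 113 CPM (E12.5) (log2 fold change 0.12, 95% interval −0.15 to 0.39). With sequencing batch as a covariate 13 members of the list were called higher and 0 lower. Between the 2 E12.5 plates edgeR called 14 members, against 15.4% of the genes in that fit. E12.5 replicates 1 and 2 alone and replicates 3 and 4 alone gave 21 and 28 rises. 

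**Figure D3:**
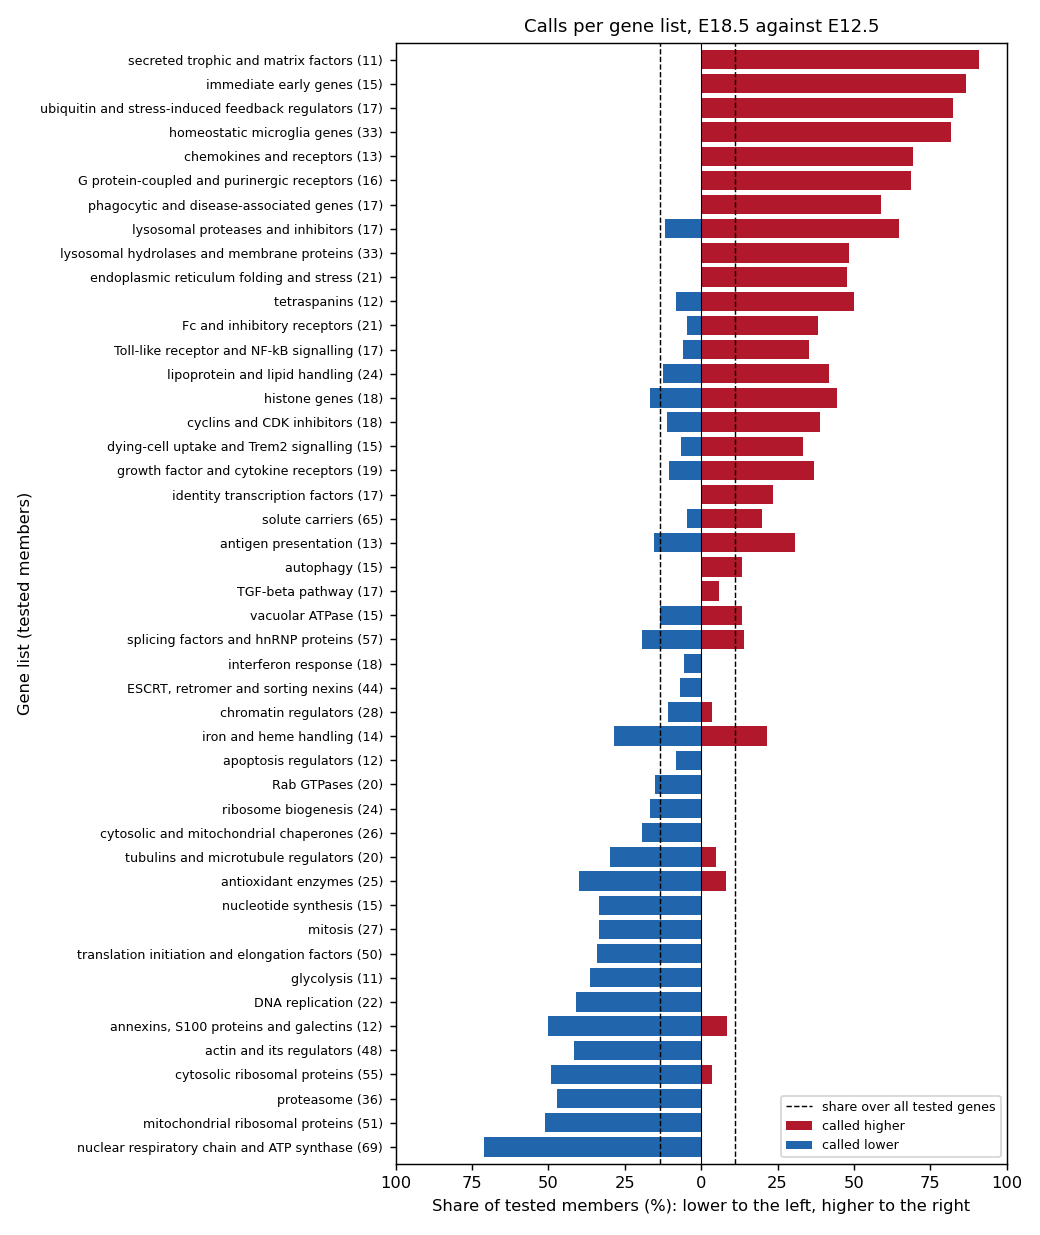
Share of the members of each gene list with at least 10 tested members that were called higher (red, to the right) or lower (blue, to the left) at E18.5, in percent, with the number of tested members beside each name. Dashed lines mark the shares over all tested genes, 11.1% higher and 13.4% lower. Secreted factors, immediate early genes, feedback regulators and homeostatic genes extend farthest to the right, and the respiratory chain farthest to the left.

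Some of the transcription factors that set macrophage and microglial identity rose. Of 17 tested, 4 rose (23.5%, against 11.1% of all tested genes), Sall1, Ikzf1 and Maf among them, and none fell, and the count was 2 without E12.5 replicates 3 and 4 in turn. Sall1, a zinc finger repressor that holds microglia in their resting state, ran from 260.00 to 524 CPM with a median of 419 at E18.5 and lay at 166, 144, 119.97 and 127 CPM in the E12.5 libraries (log2 fold change 1.52 ± 0.21 SE, adjusted p = 5.60e-07 by edgeR). Its ages did not overlap, but the covariate for sequencing batch turned it to −2.12. Sfpi1, which codes for the lineage factor PU.1, did not pass, with means of 720.1 ± 106 (E18.5) and 868 ± 90.8 CPM (E12.5) (log2 fold change −0.28, 95% interval −0.56 to 0.01). In the TGF-beta pathway, which keeps microglia in this state, 1 of 17 tested genes rose (5.88%, against 11.1% of all tested genes), and the count was 0 without E12.5 replicates 2 and 3 in turn, 2 without E18.5 replicate 2 and 3 without E18.5 replicate 6. That gene was Lrrc33, which tethers latent TGF-beta to microglia, at 437 ± 12.2 CPM against 319 ± 33.7 CPM (log2 fold change 0.44), and it did not pass without E12.5 replicates 1, 2 and 3 in turn, at 0.42 to 0.47. The pathway inhibitor Pmepa1 ran from 454 to 636 CPM with a median of 518 and lay at 433, 487, 673 and 446 CPM with groups that overlap (log2 fold change 0.05 ± 0.16 SE, adjusted p = 0.843 by edgeR). In the fit with batch as a term, edgeR gave 0 calls in identity factors and 0 calls in the TGF-beta pathway. Set against 1 E12.5 plate at a time, first replicates 1 and 2 and then 3 and 4, there were 1 and 5 rises in identity factors.

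Several receptors for cytokines rose. Among growth factor and cytokine receptors 7 of 19 rose and 2 fell (10.5%, against 13.4% of all tested genes lower), Il4ra and Il17ra. For the falls, the count was 1 without E12.5 replicates 1, 2, 3 and 4 or E18.5 replicates 1, 2, 3, 4, 5 and 6 in turn. Il6st, the signalling chain shared by interleukin-6 type cytokines, ran from 195 to 294 CPM with a median of 212 at E18.5 and lay at 78.9, 71.1, 85.7 and 91.9 CPM in the E12.5 libraries (log2 fold change 1.46 ± 0.21 SE, adjusted p = 1.42e-06 by edgeR). Il6ra, the interleukin-6 binding chain, ran from 229 to 427 CPM with a median of 346 and lay at 168, 202, 124 and 105 CPM (log2 fold change 1.16 ± 0.19 SE, adjusted p = 1.74e-05 by edgeR). Ifngr1, the ligand-binding chain for interferon gamma, ran from 1233 to 1668 CPM with a median of 1306 and lay at 730.3, 670.1, 681 and 587 CPM (log2 fold change 1.03 ± 0.14 SE, adjusted p = 3.45e-07 by edgeR). All 3 were separate between the ages, while the partner chain Ifngr2 had means of 496 ± 62.2 (E18.5) and 565 ± 142 CPM (E12.5) and did not pass (edgeR adjusted p = 0.408). Il17ra, the interleukin-17 receptor, fell from 227, 208, 184 and 232 CPM at E12.5 to a range of 71.9 to 161 CPM with a median of 108 at E18.5 (log2 fold change −0.98 ± 0.22 SE, adjusted p = 7.40e-04 by edgeR). Il6ra belongs to the genes whose libraries of batch SB31 all lay above those of the other batches. Once batch entered the fit, edgeR gave 4 higher and 0 lower in cytokine receptors.

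Receptors that couple to G proteins or sense nucleotides rose in 11 of 16 cases and fell in none, with a median of 1.02. Adora3, an adenosine receptor, ran from 68.8 to 133 CPM with a median of 111 at E18.5 and lay at 24.3, 37.4, 12.9 and 26.3 CPM in the E12.5 libraries (log2 fold change 1.96 ± 0.35 SE, adjusted p = 3.50e-05 by edgeR). P2rx7, an ion channel opened by ATP, ran from 100.96 to 211 CPM with a median of 161 and lay at 66.8, 76.7, 47.1 and 74.4 CPM (log2 fold change 1.26 ± 0.26 SE, adjusted p = 2.75e-04 by edgeR). Both were separate between the ages, and so was Entpd1, an enzyme that breaks down ATP at the cell surface, at 460.5 ± 85.4 against 220.4 ± 25.3 CPM (log2 fold change 1.06). The ATP-gated channel P2rx4, whose row also holds a cDNA clone, did not pass, at 162 ± 28.4 and 154 ± 17.0 CPM. Emr1, which codes for the macrophage marker F4/80, ran from 33.2 to 436 CPM with a median of 206 and lay at 174, 133, 38.6 and 52.5 CPM (log2 fold change 1.20 ± 0.58 SE, adjusted p = 0.152 by edgeR). As the fit stood it did not pass, but it passed without E18.5 replicate 6, at 1.46. The batch covariate gave 3 higher and 0 lower in these receptors.

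Of 24 secreted trophic and matrix factors listed, 11 were high enough to test. Of these 10 rose and none fell, with a median log2 fold change of 1.05. Sparc, a matrix protein that microglia secrete, ran from 3358 to 3772 CPM with a median of 3494 at E18.5 and lay at 1402, 1438, 1423 and 1287 CPM in the E12.5 libraries (log2 fold change 1.34 ± 0.16 SE, adjusted p = 1.86e-07 by edgeR). Csf1, the growth factor that macrophages themselves depend on, ran from 125 to 313 CPM with a median of 209 and lay at 48.6, 89.9, 47.1 and 13.1 CPM (log2 fold change 2.02 ± 0.35 SE, adjusted p = 4.21e-05 by edgeR). Serpinf1, a secreted neurotrophic serpin, ran from 90.4 to 155 CPM with a median of 104 and lay at 64.7, 31.8, 60.0 and 30.6 CPM (log2 fold change 1.30 ± 0.28 SE, adjusted p = 6.60e-04 by edgeR). These genes were separate between ages, as was the matrix protein Olfml3, at 2560.5 ± 332 against 1171 ± 292 CPM, and the protease inhibitor Serpine2, at 1658 ± 223 against 797 ± 137 CPM. The batch covariate moved Olfml3 from 1.12 to −0.011 and Serpine2 from 1.05 to −3.05, both low in the yolk sac libraries that tie the batches, where replicates 3 and 4 held 55.0 and 33.4 CPM of Olfml3 and 35.6 and 33.4 CPM of Serpine2. Spp1, the phosphoprotein osteopontin made by microglia along fibre tracts, was at 128, 271, 334, 338, 9.19 and 16.6 CPM in E18.5 replicates 1 to 6 and at 18.2, 0, 0 and 4.38 CPM in the E12.5 libraries (log2 fold change 4.66 ± 1.10 SE, adjusted p = 0.00619 by edgeR). The E18.5 plate of replicates 5 and 6 stayed at the E12.5 level while the 2 other plates were high. As for its log2 fold change, it was 6.81 without E12.5 replicate 1. The growth factor Vegfb did not pass, at 213 ± 82.2 and 173 ± 20.6 CPM. Where batch entered as a covariate, edgeR gave 3 higher and 1 lower in secreted factors.

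Chemokines and their receptors rose in 9 of 13 tested rows and fell in none. Ccl9, a chemokine of myeloid cells, ran from 91.7 to 175 CPM with a median of 136 at E18.5 and lay at 64.7, 31.8, 38.6 and 21.9 CPM in the E12.5 libraries (log2 fold change 1.71 ± 0.28 SE, adjusted p = 1.08e-05 by edgeR). Ccl6, a related chemokine, ran from 442 to 624.9 CPM with a median of 507 and lay at 176, 178, 171 and 219 CPM (log2 fold change 1.48 ± 0.18 SE, adjusted p = 2.13e-08 by edgeR). Ccl2, the ligand that draws monocytes, ran from 34.4 to 139 CPM with a median of 96.4 and lay at 14.2, 1.87, 0 and 0 CPM, with a log2 fold change of 3.98, and it was 5.85 without E12.5 replicate 1. The ages were separate for all 3. Yolk sac replicates 3 and 4 held Ccl2 at 184 and 96.4 CPM and Ccl9 at 226 and 237 CPM, at or above the E18.5 brain levels. Under the batch covariate, edgeR gave 5 higher and 0 lower in chemokines and receptors.

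Among Toll-like receptor and NF-kB genes 6 of 17 rose and 1, Myd88, fell (5.88%, against 13.4% of all tested genes lower). Cd14, the coreceptor for endotoxin, ran from 149 to 443 CPM with a median of 232 at E18.5 and lay at 87.0, 88.0, 85.7 and 65.7 CPM in the E12.5 libraries (log2 fold change 1.62 ± 0.25 SE, adjusted p = 4.53e-06 by edgeR). Tlr2, a receptor for bacterial lipoproteins, ran from 155 to 322 CPM with a median of 282 and lay at 144, 118, 85.7 and 17.5 CPM (log2 fold change 1.48 ± 0.31 SE, adjusted p = 7.78e-04 by edgeR). Unc93b1, which carries nucleic acid sensors to endosomes, ran from 1136 to 1578 CPM with a median of 1451 and lay at 872, 805, 917 and 779 CPM (log2 fold change 0.73 ± 0.14 SE, adjusted p = 9.16e-05 by edgeR). All were separate between the ages, while the NF-kB inhibitor Nfkbia overlapped, at 156 ± 68.0 against 73.6 ± 15.3 CPM (log2 fold change 1.12 ± 0.27 SE, adjusted p = 0.00196 by edgeR). The NF-kB subunit Rela did not pass, at 137 ± 29.2 and 164 ± 13.4 CPM. The NF-kB motif was found in 7 of 13 promoters of this list, against 10.9% of tested genes. The call on Myd88, the adaptor of these receptors, at 119 ± 18.2 against 176 ± 58.0 CPM (log2 fold change −0.60), depended on single libraries, and it did not pass without E12.5 replicates 1, 2 and 3 or E18.5 replicates 1, 3, 4, 5 and 6 in turn, at −0.63 to −0.45. For the falls of this list, the count was 0 without E12.5 replicates 1, 2 and 3 or E18.5 replicates 1, 3, 4, 5 and 6 in turn. In the fit with batch as a term, edgeR gave 3 higher and 0 lower in the Toll-like receptor list.

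Some genes for the clearance of dying cells and debris rose. In the dying-cell uptake list 5 of 15 rose and 1 fell (6.67%, against 13.4% of all tested genes lower). In the list of phagocytic and disease-associated genes 10 of 17 rose. In complement 5 of 7 rose, the 3 chains of C1q with C5ar1 and Itgam. Trem2, a lipid-sensing receptor of microglia, ran from 2385 to 3109 CPM with a median of 2608 at E18.5 and lay at 1542, 1475, 1632 and 1808 CPM in the E12.5 libraries (log2 fold change 0.71 ± 0.12 SE, adjusted p = 2.90e-05 by edgeR). The bridging ligands that tie dying cells to uptake receptors rose too: Gas6 ran from 1009.6 to 1376 CPM with a median of 1193 and lay at 519.9, 459, 621 and 718 CPM (log2 fold change 1.02 ± 0.16 SE, adjusted p = 5.13e-06 by edgeR). Pros1, the other bridging ligand, ran from 69.5 to 151 CPM with a median of 111 and lay at 28.3, 43.1, 25.7 and 8.75 CPM (log2 fold change 1.95 ± 0.33 SE, adjusted p = 1.89e-05 by edgeR). C5ar1, the receptor for the complement fragment C5a, was at 62.1 ± 23.6 against 15.3 ± 8.87 CPM (log2 fold change 1.90 ± 0.40 SE, adjusted p = 3.95e-04 by edgeR). The ages were separate for these genes. Rac2, a GTPase of engulfment and motility, fell, from 1054, 1164, 1217 and 1204 CPM at E12.5 to a range of 470.1 to 749 CPM with a median of 609 at E18.5 (log2 fold change −0.93 ± 0.15 SE, adjusted p = 1.54e-05 by edgeR). Apoe, the lipid carrier and the most abundant member, did not pass, at 19429 ± 2169 and 17155 ± 1516 CPM (log2 fold change 0.17, 95% interval −0.37 to 0.70). Once batch entered the fit, edgeR gave 2 higher and 1 lower in dying-cell uptake, 5 higher and 1 lower in phagocytic genes and 4 higher and 0 lower in complement. Set against 1 E12.5 plate at a time, first replicates 1 and 2 and then 3 and 4, there were 4 and 8 rises in dying-cell uptake, and 6 and 9 rises in phagocytic genes.

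Many lysosomal genes rose. Of 17 proteases and their inhibitors 11 rose and 2 fell (11.8%, against 13.4% of all tested genes lower). Of 33 hydrolases and membrane proteins 16 rose and none fell. In the vacuolar ATPase 2 of 15 rose (13.3%, near the 11.1% of all tested genes), the accessory proteins Atp6ap1 and Atp6ap2. Of the same genes 2 fell (13.3%, near the 13.4% of all tested genes), the subunits Atp6v1f and Atp6v1e1. For the falls, the count was 1 without E12.5 replicates 1 and 3 or E18.5 replicates 1 and 4 in turn. Ctsf, a cysteine protease, ran from 309 to 592 CPM with a median of 422 at E18.5 and lay at 156, 187, 184 and 162 CPM in the E12.5 libraries (log2 fold change 1.36 ± 0.18 SE, adjusted p = 3.90e-07 by edgeR). Tpp1, a peptidase whose loss causes a storage disease of neurons, ran from 343 to 722 CPM with a median of 483 and lay at 307, 269.6, 137 and 140.1 CPM (log2 fold change 1.23 ± 0.21 SE, adjusted p = 2.07e-05 by edgeR). Lamp2, a membrane protein of the lysosome, ran from 271 to 413 CPM with a median of 309 and lay at 184, 152, 77.1 and 78.8 CPM (log2 fold change 1.33 ± 0.22 SE, adjusted p = 1.16e-05 by edgeR). Gusb, the enzyme beta-glucuronidase, was at 687 ± 129.96 against 339.7 ± 55.2 CPM (log2 fold change 1.00 ± 0.18 SE, adjusted p = 3.69e-05 by edgeR), and no library of either age crossed into the other for these genes. The falls were Cstb, an inhibitor of cathepsins, which lay at 411, 423, 403 and 403 CPM at E12.5 and ran from 155 to 202 CPM with a median of 172 at E18.5 (log2 fold change −1.24 ± 0.17 SE, adjusted p = 4.18e-07 by edgeR). The aspartic protease Napsa was at 82.9, 43.1, 129 and 96.3 CPM at E12.5 and at no more than 11.1 CPM in any E18.5 library (log2 fold change −4.04 ± 0.77 SE, adjusted p = 4.20e-04 by edgeR). Psap, the precursor of saposins, did not pass, at 2796, 2776, 1367 and 1169 CPM at E12.5 with its 2 plates apart, and a range of 1864 to 2832 CPM with a median of 2534 at E18.5, but it passed without E12.5 replicate 1, at 0.49. The lysosomal motif TCACGTGA was in 2 of 13 protease promoters, those of Ctsa and Ctsd, and 1 of 28 hydrolase promoters, that of Mcoln1, against 2.20% of tested genes. The batch covariate gave 8 higher and 1 lower in proteases, 9 higher and 0 lower in hydrolases and 1 higher and 0 lower in the vacuolar ATPase.

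Among genes of vesicle traffic the shares called lay near the background or below it. Autophagy genes rose in 2 of 15 cases, Map1lc3a and Ulk2, and the count was 0 without E12.5 replicate 1 and 1 without E12.5 replicates 2, 3 and 4 or E18.5 replicates 4 and 5 in turn. Among Rab GTPases 3 of 20 fell, Rab1b, Rab8a and Rab14, and the count was 1 without E12.5 replicate 3. Of 44 ESCRT, retromer and sorting nexin genes 3 fell, Chmp2a, Snx3 and the row of Vps25, and the count was 1 without E12.5 replicates 3 and 4 or E18.5 replicate 4 in turn. The shares were 13.3% higher for autophagy, 15% lower for Rab GTPases and 6.82% lower for the last list, against 11.1% and 13.4% of all tested genes. Where batch entered as a covariate, edgeR gave 0 calls in autophagy, 0 calls in Rab GTPases and 2 higher and 0 lower in the ESCRT list.

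Fc and inhibitory receptors rose in 8 of 21 cases and fell in 1 (4.76%, against 13.4% of all tested genes lower). Fcgr2b, the inhibitory receptor for immunoglobulin G, ran from 117 to 229 CPM with a median of 152 at E18.5 and lay at 20.2, 31.8, 12.9 and 8.75 CPM in the E12.5 libraries (log2 fold change 2.92 ± 0.30 SE, adjusted p = 7.06e-10 by edgeR). Sirpa, which reads the CD47 signal of healthy cells, ran from 2339.9 to 3199 CPM with a median of 2573 and lay at 1222, 1318, 887 and 862 CPM (log2 fold change 1.32 ± 0.17 SE, adjusted p = 2.75e-07 by edgeR). Siglech, a sialic acid-binding lectin of microglia, ran from 304 to 833 CPM with a median of 539 and lay at 245, 264, 90.0 and 127 CPM (log2 fold change 1.54 ± 0.39 SE, adjusted p = 0.0085 by edgeR). Each was separate between ages. Cd52, a small glycoprotein of leukocytes, was the fall, from 2634, 2544, 3274 and 2714 CPM at E12.5 to a range of 776 to 940.3 CPM with a median of 891 at E18.5 (log2 fold change −1.68 ± 0.14 SE, adjusted p = 4.52e-12 by edgeR). The signalling phosphatase Ptpn6 did not pass, at 747 ± 119 and 753 ± 183 CPM. Under the batch covariate, edgeR gave 5 higher and 1 lower in Fc and inhibitory receptors. Between the 2 E12.5 plates edgeR called 12 of them, against 15.4% of the genes in that fit. The E12.5 plates taken singly, replicates 1 and 2 and then 3 and 4, gave 6 and 11 rises.

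Tetraspanins, which organise membrane domains, rose in 6 of 12 cases and fell in 1 (8.33%, against 13.4% of all tested genes lower). Cd81 ran from 2638 to 3336 CPM with a median of 2967 at E18.5 and lay at 1086, 1172, 1465 and 1440.03 CPM in the E12.5 libraries (log2 fold change 1.19 ± 0.14 SE, adjusted p = 1.77e-08 by edgeR). Tspan7 was low at both ages but separate, at 54.1 ± 15.0 against 5.98 ± 3.50 CPM (log2 fold change 2.96 ± 0.46 SE, adjusted p = 4.26e-06 by edgeR). Tspan13 moved the other way, with 208, 221, 239.9 and 232 CPM at E12.5 and a range of 42.5 to 90.4 CPM with a median of 70.6 at E18.5 (log2 fold change −1.71 ± 0.26 SE, adjusted p = 2.46e-06 by edgeR). In antigen presentation 4 of 13 rose, the rows of H2-D1 and of H2-DMb1 with the class I molecule H2-K1 at 253 ± 31.1 against 159.7 ± 26.9 CPM and the activation marker Cd83 at 127 ± 43.0 against 44.7 ± 19.2 CPM (log2 fold changes 0.67 and 1.41). The immunoproteasome subunits Psmb8 and Psmb9 fell (15.4% of this list, near the 13.4% of all tested genes). Psmb8 went from 461 ± 41.9 to 286 ± 42.9 CPM (log2 fold change −0.69 ± 0.18 SE, adjusted p = 0.00302 by edgeR). Interferon response genes gave 1 call in 18 (5.56%, against 13.4% of all tested genes lower), the nucleic acid sensor Zbp1, lower at 4.93 ± 8.07 against 24.3 ± 9.74 CPM (log2 fold change −2.19 ± 0.68 SE, adjusted p = 0.0157 by edgeR), and the count was 0 without E12.5 replicate 3 or E18.5 replicate 5 in turn and 3 without E18.5 replicate 3. It is named because it was the only call of its list, and it was −3.10 without E18.5 replicate 3 and it did not pass without E12.5 replicate 3 or E18.5 replicate 5 in turn, at −1.90 to −1.84. Ifi27l2a, an interferon-induced gene outside that list, fell from 253, 137, 124 and 149 CPM at E12.5 to a range of 17.2 to 60.8 CPM with a median of 51.8 at E18.5 (log2 fold change −1.90 ± 0.30 SE, adjusted p = 1.76e-05 by edgeR). In the fit with batch as a term, edgeR gave 2 higher and 0 lower in tetraspanins, 1 higher and 2 lower in antigen presentation and 0 higher and 2 lower in the interferon list. The E12.5 plates taken singly, replicates 1 and 2 and then 3 and 4, gave 4 and 2 rises in antigen presentation.

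Lipid-handling genes rose in 10 of 24 cases (41.7%, against 11.1% of all tested genes). The 3 falls, Apoc1, Plin2 and the row of Apoc2, made 12.5%, near the 13.4% of all tested genes. Abca1, which loads cholesterol onto lipoproteins, ran from 183 to 473 CPM with a median of 306 at E18.5 and lay at 146, 116, 81.4 and 56.9 CPM in the E12.5 libraries (log2 fold change 1.57 ± 0.29 SE, adjusted p = 1.14e-04 by edgeR). Its relative Abca9 ran from 90.4 to 127 CPM with a median of 99.3 and lay at 16.2, 28.1, 21.4 and 17.5 CPM (log2 fold change 2.29 ± 0.32 SE, adjusted p = 5.83e-07 by edgeR). Lpcat2, which makes platelet-activating factor, ran from 1029 to 1167 CPM with a median of 1080.4 and lay at 619, 627, 394 and 368 CPM (log2 fold change 1.11 ± 0.18 SE, adjusted p = 9.62e-06 by edgeR). These genes were separate upward. The small apolipoprotein Apoc1 was separate downward, with 309.5, 346, 433 and 263 CPM at E12.5 and a range of 18.9 to 120.4 CPM with a median of 78.2 at E18.5 (log2 fold change −2.10 ± 0.26 SE, adjusted p = 6.74e-08 by edgeR). All libraries of batch SB31 lay below all others for Apoc1. Once batch entered the fit, edgeR gave 3 higher and 2 lower in lipid handling. E12.5 replicates 1 and 2 alone and replicates 3 and 4 alone gave 6 and 10 rises in lipid handling.

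Ferritin and several antioxidant genes fell. Fth1, the heavy chain of ferritin, lay at 3475, 3409, 3998 and 4443 CPM at E12.5 and ran from 1404 to 2030.2 CPM with a median of 1579.99 at E18.5 (log2 fold change −1.25 ± 0.13 SE, adjusted p = 4.66e-10 by edgeR). Ftl1, the light chain, lay at 10647, 10198, 15241 and 15989 CPM and ran from 6215 to 7816 CPM with a median of 7069 (log2 fold change −0.90 ± 0.13 SE, adjusted p = 7.00e-07 by edgeR). Slc40a1, the iron exporter ferroportin, was higher instead, at 57.2 ± 30.8 against 14.7 ± 5.25 CPM (log2 fold change 1.89 ± 0.48 SE, adjusted p = 0.00273 by edgeR), and all 3 genes were separate. Over the iron list 3 of 14 rose and 4 fell. For the rises, Slc40a1, Trf and the row of Slc11a2, the count was 1 without E12.5 replicate 4. For the falls, Fth1, Ftl1, Blvrb and Slc11a1, the count was 2 without E12.5 replicate 4 or E18.5 replicate 5 in turn. Of 25 antioxidant and oxidase genes 10 fell and 2 rose. Gpx1, a glutathione peroxidase, lay at 3269, 3235, 3535 and 3467 CPM and ran from 1578 to 1931 CPM with a median of 1761 (log2 fold change −0.95 ± 0.14 SE, adjusted p = 1.13e-06 by edgeR). Ncf1, a subunit of the phagocyte oxidase, was at 145 ± 34.9 against 281 ± 91.6 CPM (log2 fold change −0.93 ± 0.23 SE, adjusted p = 0.00208 by edgeR). The rises were Txnip, an inhibitor of thioredoxin at 733 ± 111 against 252 ± 89.9 CPM, and Sepp1, the plasma selenoprotein. Sepp1 ran from 4922 to 5676 CPM with a median of 5299.96 and lay at 1744, 1639.8, 1611 and 1580.1 CPM (log2 fold change 1.69 ± 0.14 SE, adjusted p = 2.08e-12 by edgeR), with 4335 and 4168 CPM in yolk sac replicates 3 and 4. Gpx1 and Txnip are among the genes whose batch SB31 libraries all lay on one side of the others. The batch covariate gave 0 higher and 2 lower in the iron list and 3 higher and 2 lower in antioxidant genes. Set against 1 E12.5 plate at a time, first replicates 1 and 2 and then 3 and 4, there were 2 and 5 falls in the iron list, and 4 and 10 falls in antioxidant genes.

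Transcripts of energy metabolism fell. Of 69 nuclear genes of the respiratory chain and ATP synthase 49 fell and none rose, with a median log2 fold change of −0.78. Uqcrq, a subunit of complex III, lay at 585, 584, 741 and 959 CPM at E12.5 and ran from 232 to 347 CPM with a median of 281 at E18.5 (log2 fold change −1.34 ± 0.18 SE, adjusted p = 3.11e-07 by edgeR). Ndufb8, of complex I, lay at 417, 541, 621 and 735 CPM and ran from 215 to 255 CPM with a median of 249 (log2 fold change −1.27 ± 0.18 SE, adjusted p = 1.12e-06 by edgeR). Cox5b, of complex IV, lay at 231, 324, 411 and 503 CPM and ran from 126 to 210.2 CPM with a median of 144 (log2 fold change −1.26 ± 0.21 SE, adjusted p = 1.74e-05 by edgeR). All 3 were separate, with the E12.5 plate of replicates 3 and 4 above that of replicates 1 and 2. Yolk sac replicates 3 and 4 held Ndufb8 at 320.3 and 419 CPM, between the brain ages. Cox7a2l, a supercomplex factor, did not pass, at 485 ± 77.0 and 517 ± 124 CPM (log2 fold change −0.09, 95% interval −0.46 to 0.28). Mitochondrial ribosomal proteins fell in 26 of 51 cases, and the count was 17 without E12.5 replicate 3 or E18.5 replicate 4 in turn. Mrps21 was at 108 ± 19.7 against 282 ± 49.0 CPM (log2 fold change −1.38 ± 0.20 SE, adjusted p = 1.59e-06 by edgeR). In glycolysis 4 of 11 fell, Gpi1, Aldoa, Ldha and the row of Eno1, and the count was 2 without E12.5 replicates 3 and 4 in turn. Ldha, lactate dehydrogenase, lay at 997, 1022, 913 and 1042 CPM and ran from 533 to 685 CPM with a median of 549 (log2 fold change −0.77 ± 0.14 SE, adjusted p = 6.43e-05 by edgeR). With sequencing batch as a covariate 13 respiratory chain genes were called lower, at a median of −0.65, and for 13 all libraries of batch SB31 lay below all others. Where batch entered as a covariate, edgeR gave 0 higher and 5 lower in mitochondrial ribosomal proteins and 0 calls in glycolysis. The E12.5 plates taken singly, replicates 1 and 2 and then 3 and 4, gave 27 and 46 falls in the respiratory chain, 5 and 23 falls in mitochondrial ribosomal proteins, and 2 and 5 falls in glycolysis.

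**Figure D4:**
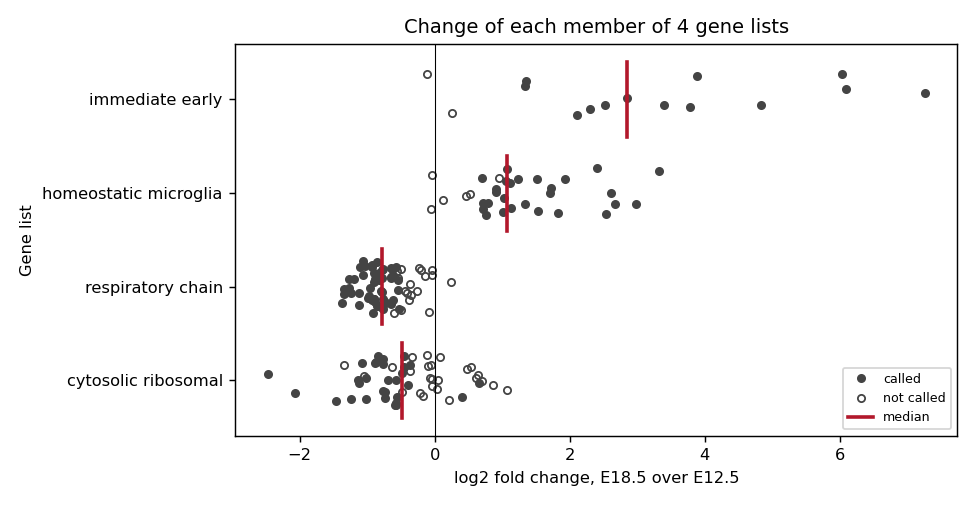
Log2 fold change, E18.5 over E12.5, of the tested members of 4 lists (horizontal axis), 1 point per gene, with filled points for genes called by edgeR and open points for the others. The vertical line is 0 and the short bars are list medians, at 2.85 for immediate early genes, 1.08 for homeostatic genes, −0.78 for the respiratory chain and −0.48 for cytosolic ribosomal proteins. Respiratory chain genes lie close together to the left of 0, while ribosomal genes spread on both sides.

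Transcripts of the protein synthesis machinery fell in part. Of 55 cytosolic ribosomal protein rows 27 fell and 2 rose, Rpl3 among them. For the falls, the count was 17 without E12.5 replicate 4. For the rises, the count was 0 without E12.5 replicates 1 and 2 in turn and 1 without E18.5 replicates 1, 3 and 4 in turn. Rps26, of the small subunit, lay at 2365, 2309.9, 4233 and 3598 CPM at E12.5 and ran from 665 to 929 CPM with a median of 706 at E18.5 (log2 fold change −2.07 ± 0.33 SE, adjusted p = 2.88e-04 by edgeR). Rps18 lay at 2753, 2583, 4195 and 3615 CPM and ran from 1382 to 1787 CPM with a median of 1499 (log2 fold change −1.12 ± 0.14 SE, adjusted p = 9.01e-08 by edgeR). The E12.5 plates differed here, and 37 of the rows were called between them by edgeR. Rpl4 did not pass with age, but lay at 3532, 3456, 1448 and 1672 CPM at E12.5 and at 2508, 2439.6, 2997, 2677, 1902 and 1377 CPM in E18.5 replicates 1 to 6. Ribosomal proteins have many processed copies in the genome, so their counts are uncertain where the authors' counting could split reads. Translation factors fell in 17 of 50 cases, and the count was 10 without E12.5 replicate 3, 8 without E12.5 replicate 4 and 11 without E18.5 replicates 4 and 6 in turn. Eif3i, a subunit of initiation factor 3, was at 161 ± 30.2 against 327 ± 67.5 CPM (log2 fold change −1.02 ± 0.19 SE, adjusted p = 9.24e-05 by edgeR). Ribosome biogenesis gave 4 falls in 24, Polr1d, Nolc1, Ncl and Pes1 (16.7%, near the 13.4% of all tested genes), and the count was 2 without E12.5 replicates 3 and 4 or E18.5 replicates 1, 3 and 5 in turn. The nucleolar protein Ncl was at 826 ± 75.7 against 1329.8 ± 107 CPM (log2 fold change −0.70 ± 0.13 SE, adjusted p = 8.84e-05 by edgeR). Under the batch covariate, edgeR gave 0 higher and 20 lower in cytosolic ribosomal proteins, 0 higher and 4 lower in translation factors and 0 higher and 2 lower in ribosome biogenesis. E12.5 replicates 1 and 2 alone and replicates 3 and 4 alone gave 8 and 29 falls in cytosolic ribosomal proteins, 2 and 14 falls in translation factors, and 2 and 4 falls in ribosome biogenesis.

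Genes of protein breakdown and folding gave calls in both directions. Proteasome genes fell in 17 of 36 cases and rose in none, and the count was 10 without E12.5 replicate 4 or E18.5 replicate 4 in turn and 11 without E18.5 replicate 3. Psmb6, a catalytic subunit, lay at 544, 562, 638 and 744 CPM at E12.5 and ran from 243 to 404 CPM with a median of 327 at E18.5 (log2 fold change −0.94 ± 0.17 SE, adjusted p = 3.83e-05 by edgeR). Cytosolic and mitochondrial chaperones fell in 5 of 26, Hspa8, Hsp90ab1, Hspe1, Cct7 and Fkbp4, and the count was 3 without E12.5 replicate 4. Cct7, part of the chaperonin that folds actin and tubulin, was at 258 ± 57.8 against 553 ± 105 CPM (log2 fold change −1.11 ± 0.19 SE, adjusted p = 2.34e-05 by edgeR). Folding and stress genes of the endoplasmic reticulum rose in 10 of 21 cases and fell in none. Hspa5, its main chaperone BiP, ran from 464 to 921 CPM with a median of 547 and lay at 441, 397, 261 and 197 CPM (log2 fold change 0.85 ± 0.20 SE, adjusted p = 0.00194 by edgeR). Sel1l, which helps clear misfolded proteins, ran from 128 to 259 CPM with a median of 158 and lay at 119, 84.2, 34.3 and 43.8 CPM (log2 fold change 1.25 ± 0.28 SE, adjusted p = 9.59e-04 by edgeR). The stress transcription factor Atf4 was at 455 ± 81.3 against 243 ± 23.4 CPM (log2 fold change 0.90), but the batch covariate brought it to −0.11. Calr, a chaperone of the same compartment, was steady, at 2224 ± 173 and 2152 ± 229 CPM (95% interval of the log2 fold change −0.21 to 0.28). In the fit with batch as a term, edgeR gave 0 higher and 7 lower in the proteasome, 0 higher and 2 lower in chaperones and 1 higher and 0 lower in the endoplasmic reticulum list. Set against 1 E12.5 plate at a time, first replicates 1 and 2 and then 3 and 4, there were 10 and 16 falls in the proteasome, 3 and 6 falls in chaperones, and 5 and 10 rises in the endoplasmic reticulum list.

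Splicing factors gave calls both ways, 8 higher and 11 lower of 57. These shares, 14.0% and 19.3%, lie near the 11.1% and 13.4% of all tested genes. For the rises, the count was 4 without E12.5 replicates 2 and 3 in turn, and for the falls, the count was 7 without E12.5 replicates 3 and 4 or E18.5 replicate 4 in turn. Srsf5, a serine- and arginine-rich splicing regulator, ran from 542 to 745 CPM with a median of 616 at E18.5 and lay at 166, 167, 111 and 144 CPM in the E12.5 libraries (log2 fold change 2.08 ± 0.18 SE, adjusted p = 6.09e-12 by edgeR). Hnrnpa1 was also higher, at 94.2 ± 41.2 against 30.7 ± 6.90 CPM (log2 fold change 1.60 ± 0.38 SE, adjusted p = 0.00167 by edgeR). Snrpd2, a core small nuclear ribonucleoprotein subunit, moved the other way and lay at 339.9, 320.1, 446 and 381 CPM and ran from 86.0 to 215 CPM with a median of 134 (log2 fold change −1.42 ± 0.21 SE, adjusted p = 2.21e-06 by edgeR). Each of these was separate between ages. Once batch entered the fit, edgeR gave 1 higher and 3 lower in splicing factors. The E12.5 plates taken singly, replicates 1 and 2 and then 3 and 4, gave 3 and 4 rises in splicing factors, and 3 and 12 falls in splicing factors.

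Proliferation genes fell in part. DNA replication genes fell in 9 of 22 cases and mitotic genes in 9 of 27, with none higher in either list. Mcm7, a subunit of the replicative helicase, lay at 129, 118, 176 and 153 CPM at E12.5 and ran from 42.5 to 97.5 CPM with a median of 58.8 at E18.5 (log2 fold change −1.12 ± 0.27 SE, adjusted p = 0.00167 by edgeR). Cks1b, a partner of cyclin-dependent kinases, lay at 121, 185, 133 and 144 CPM and ran from 38.7 to 85.0 CPM with a median of 63.4 (log2 fold change −1.22 ± 0.27 SE, adjusted p = 7.86e-04 by edgeR). Cdca8, of the chromosomal passenger complex, lay at 188, 167, 219 and 219 CPM and ran from 51.6 to 139 CPM with a median of 108 (log2 fold change −0.94 ± 0.24 SE, adjusted p = 0.0037 by edgeR). Those genes did not overlap, yet Pcna, the sliding clamp of replication, did not pass, at 141 ± 31.9 and 139.7 ± 5.41 CPM (log2 fold change 0.00, 95% interval −0.50 to 0.50). After thinning to 300 UMIs per cell, 21.0% to 39.4% of the cells of an E18.5 library held at least 2 UMIs of these lists, against 44.2% to 54.0% at E12.5. The E2F motif (TTTCGCGC, TTTGGCGC or TTTCCCGC) was in 5 of 20 replication promoters, against 4.04% of tested genes with one. The batch covariate gave 0 higher and 2 lower in DNA replication and 0 higher and 1 lower in mitosis. E12.5 replicates 1 and 2 alone and replicates 3 and 4 alone gave 3 and 11 falls in DNA replication, and 3 and 9 falls in mitosis.

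Among regulators of the cell cycle more rose than fell. In that list 7 of 18 rose (38.9%, against 11.1% of all tested genes) and 2 fell (11.1%, against 13.4%). The falls were Cdk4, the kinase that opens the cycle, and the row of its partner Ccnd2. Cdk4 lay at 473, 490.4, 613 and 635 CPM at E12.5 and ran from 201 to 293 CPM with a median of 251 at E18.5 (log2 fold change −1.14 ± 0.19 SE, adjusted p = 1.74e-05 by edgeR). The Ccnd2 row was at 78.9, 74.9, 214 and 123 CPM at E12.5 and at no more than 18.9 CPM at E18.5 (log2 fold change −4.08 ± 0.55 SE, adjusted p = 5.44e-07 by edgeR). Both were separate, and in both all libraries of batch SB31 lay below all others. The rises included Rb1, which restrains entry into the cycle, at 48.0 ± 17.8 against 13.8 ± 4.82 CPM, and Ccng2, a cyclin of resting cells, at 84.0 ± 28.2 against 26.2 ± 17.0 CPM (log2 fold changes 1.71 and 1.52, edgeR adjusted p = 0.00412 and 0.00156). For Rb1 all libraries of batch SB31 lay above all others. Polyadenylated histone transcripts gave 8 rises (44.4%) and 3 falls (16.7%, near the 13.4% of all tested genes) in 18 rows. The falls were H2afx, H2afy and the row of H2afz. The linker histone Hist1h1c ran from 241 to 703 CPM with a median of 499 and lay at 237, 200.3, 137 and 201 CPM (log2 fold change 1.26 ± 0.21 SE, adjusted p = 1.74e-05 by edgeR), while the variant H2afy was at 368 ± 67.7 against 599 ± 156 CPM (log2 fold change −0.72). Of 7 oncofetal genes 3 fell, Igf2bp1, the row of Hmga1 and Arid3b, and Arid3b, a factor of early development, lay at 89.0, 74.9, 129 and 78.8 CPM and ran from 20.9 to 50.5 CPM with a median of 34.3 (log2 fold change −1.35 ± 0.33 SE, adjusted p = 0.00179 by edgeR). Where batch entered as a covariate, edgeR gave 2 higher and 1 lower in cell cycle regulators, 1 higher and 1 lower in histone genes and 0 higher and 2 lower in oncofetal genes. Set against 1 E12.5 plate at a time, first replicates 1 and 2 and then 3 and 4, there were 5 and 4 rises in cell cycle regulators, and 7 and 5 rises in histone genes.

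Many cytoskeletal transcripts fell. Actin and its regulators fell in 20 of 48 cases and rose in none, with a median of −0.43, and the count was 13 without E18.5 replicate 4. Coro1a, which caps branched actin in leukocytes, lay at 2978, 2785, 3591 and 3738 CPM at E12.5 and ran from 1349 to 1709 CPM with a median of 1596 at E18.5 (log2 fold change −1.08 ± 0.13 SE, adjusted p = 1.77e-08 by edgeR). Cotl1, a coactosin that binds filaments, lay at 645, 674, 1144 and 1169 CPM and ran from 234 to 399.7 CPM with a median of 291 (log2 fold change −1.58 ± 0.18 SE, adjusted p = 8.43e-09 by edgeR). Capg, a capping protein, lay at 237, 258, 206 and 219 CPM and ran from 45.9 to 126 CPM with a median of 71.4 (log2 fold change −1.62 ± 0.24 SE, adjusted p = 2.05e-06 by edgeR). Vim, the intermediate filament vimentin, was at 57.7 ± 29.6 against 329 ± 43.3 CPM (log2 fold change −2.46 ± 0.60 SE, adjusted p = 0.00749 by edgeR). Libraries of the ages did not overlap for these genes, and Actb itself was at 18966 ± 1386 against 25731 ± 1721 CPM (log2 fold change −0.45). Tln1, which ties integrins to actin and whose row also holds a cDNA clone, did not pass, at 1052 ± 159.6 and 1121 ± 88.4 CPM (95% interval of the log2 fold change −0.37 to 0.17). Tubulin genes fell in 6 of 20, and the count was 2 without E12.5 replicates 3 and 4 in turn. Dynll1, a dynein light chain, was at 142 ± 37.8 against 325 ± 85.6 CPM (log2 fold change −1.19 ± 0.21 SE, adjusted p = 4.16e-05 by edgeR). Of 12 annexins, S100 proteins and galectins 6 fell and 1 rose. Anxa5, which binds exposed phosphatidylserine, was at 134 ± 38.6 against 241 ± 30.2 CPM (log2 fold change −0.85 ± 0.20 SE, adjusted p = 0.00178 by edgeR), and Lgals3bp, a ligand of galectins, was the rise, at 281 ± 96.8 against 112 ± 39.6 CPM. Under the batch covariate, edgeR gave 0 higher and 13 lower in actin and its regulators, 0 higher and 2 lower in tubulin genes and 0 higher and 2 lower in annexins and their like. The E12.5 plates taken singly, replicates 1 and 2 and then 3 and 4, gave 1 and 6 falls in tubulin genes.

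Several of the largest changes lay outside these lists. Sdc4, a heparan sulfate proteoglycan of focal contacts, ran from 151 to 294 CPM with a median of 231 at E18.5 and lay at 28.3, 24.3, 12.9 and 21.9 CPM in the E12.5 libraries (log2 fold change 3.25 ± 0.30 SE, adjusted p = 4.40e-11 by edgeR), with 252 and 271 CPM in yolk sac replicates 3 and 4. Tspo, a mitochondrial protein used as a tracer target for activated microglia, lay at 403, 507, 617 and 705 CPM at E12.5 and ran from 128 to 189 CPM with a median of 160.1 at E18.5 (log2 fold change −1.81 ± 0.20 SE, adjusted p = 2.77e-09 by edgeR). Tnni2, a troponin subunit, lay at 265, 212, 304 and 319.5 CPM and ran from 26.6 to 69.5 CPM with a median of 55.7 (log2 fold change −2.37 ± 0.26 SE, adjusted p = 2.98e-09 by edgeR). Cela1, an elastase, lay at 50.6, 71.1, 60.0 and 136 CPM and ran from 0 to 20.9 CPM with a median of 5.92 (log2 fold change −3.45 ± 0.51 SE, adjusted p = 2.05e-06 by edgeR). All 4 were separate between the ages. Absolute gain was ranked over all called genes, inside the lists or not. By this measure Cst3, a secreted cysteine protease inhibitor, rose most, from 8203 ± 939 to 14272 ± 897 CPM (log2 fold change 0.79). The aspartic protease Ctsd rose from 8958 ± 1249.6 to 12614 ± 939 CPM, and Laptm5, a lysosomal membrane protein of leukocytes whose row also holds a cDNA clone, from 4684 ± 47.5 to 7856 ± 571 CPM.

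Some abundant transcripts stayed level. Of 3688 genes that were not called, 121 had a 95% interval of the log2 fold change within 0.5 of 0. Clta, a clathrin light chain, had means of 2028 ± 123 (E18.5) and 1925 ± 59.3 CPM (E12.5) (95% interval −0.17 to 0.30). Erp29 and P4hb, which fold secreted proteins, also had intervals within these bounds, with means of 1369 ± 168 (E18.5) and 1322 ± 176 CPM (E12.5) for Erp29 and of 995 ± 90.8 and 1016 ± 118 CPM for P4hb. Plxnb2, a semaphorin receptor, was at 1398 ± 175 and 1232 ± 112 CPM (95% interval −0.10 to 0.45). Tyrobp, the signalling adaptor of Trem2, also lay within these bounds.

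Solute carriers rose in 13 of 65 cases (20%, against 11.1% of all tested genes) and fell in 3 (4.62%, against 13.4%), Slc11a1, Slc25a1 and Slc25a4. For the falls, the count was 1 without E12.5 replicate 4 or E18.5 replicate 5 in turn. Slc25a45, a mitochondrial carrier, ran from 218 to 322 CPM with a median of 293 at E18.5 and lay at 166, 144, 98.5 and 96.3 CPM in the E12.5 libraries (log2 fold change 1.14 ± 0.21 SE, adjusted p = 6.43e-05 by edgeR). Slc9a9, an endosomal proton exchanger, ran from 75.7 to 124 CPM with a median of 105 and lay at 48.6, 58.0, 12.9 and 17.5 CPM (log2 fold change 1.41 ± 0.35 SE, adjusted p = 0.00203 by edgeR). Slc25a1, the mitochondrial citrate carrier, was lower, at 83.04 ± 30.9 against 186 ± 75.1 CPM (log2 fold change −1.16 ± 0.28 SE, adjusted p = 0.00191 by edgeR). Apoptosis regulators gave 1 fall in 12, Bad (8.33%, against 13.4% of all tested genes), and the count was 0 without E12.5 replicates 2 and 4 or E18.5 replicates 2, 3, 4 and 5 in turn. The apoptosis effector Bax was at 183 ± 6.10 and 178 ± 20.01 CPM (log2 fold change 0.04). The long noncoding RNA Malat1 ran from 2933 to 4654 CPM with a median of 3817 and lay at 1748, 1717, 531 and 503 CPM (log2 fold change 1.74 ± 0.48 SE, adjusted p = 0.0157 by edgeR), separate between ages although the E12.5 plates themselves lay apart. Chromatin regulators gave 1 rise, the row of the remodeller Chd4, and 3 falls in 28, Hmgn1, Ruvbl1 and the row of Hmga1. These shares, 3.57% and 10.7%, lie below the 11.1% and 13.4% of all tested genes. In nucleotide synthesis 5 of 15 fell, Atic, Cad, Nme2, the row of Dut and Nme1, and the count was 3 without E12.5 replicates 3 and 4 or E18.5 replicates 4, 5 and 6 in turn. The last of these, the nucleoside diphosphate kinase Nme1, was at 199 ± 28.3 against 465 ± 54.8 CPM (log2 fold change −1.23 ± 0.19 SE, adjusted p = 3.45e-06 by edgeR). In the integrins 2 of 7 rose, Itga9 and Itgam, and the count was 1 without E12.5 replicate 4. Neither of the 2 tested cholesterol genes, Ebp and Pmvk, passed. In the fit with batch as a term, edgeR gave 0 higher and 1 lower in solute carriers, 0 calls in apoptosis, 0 calls in chromatin regulators, 0 higher and 2 lower in nucleotide synthesis and 0 calls in integrins. E12.5 replicates 1 and 2 alone and replicates 3 and 4 alone gave 2 and 4 falls in nucleotide synthesis.

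Of the genes used for sorting, Itgam (CD11b) ran from 498 to 1021 CPM with a median of 919 at E18.5 and lay at 558, 499.8, 266 and 206 CPM in the E12.5 libraries (log2 fold change 1.13 ± 0.34 SE, adjusted p = 0.0233 by edgeR), and it did not pass without E12.5 replicates 3 and 4 in turn, at 0.98 to 1.04. Cx3cr1 ran from 223 to 441 CPM with a median of 305 and lay at 180.05, 238, 124 and 105 CPM (log2 fold change 0.90 ± 0.25 SE, adjusted p = 0.00802 by edgeR), and with the batch covariate its log2 fold change was −0.0084. Ptprc (CD45) did not pass, at 322, 219, 94.3 and 114 CPM at E12.5 and a range of 118 to 309 CPM with a median of 204 at E18.5. All 3 overlap between the ages. The gate at E18.5 took intermediate CD45 and CD11b protein, and protein was not measured here.

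Markers of other blood cells were scattered and differed by library. Markers of granulocytes and their precursors reached a summed level of 335 to 1426 CPM at E18.5 and 206 to 256.4 CPM at E12.5. The list holds the receptor Csf3r, with 157 and 170 UMIs at E18.5 and E12.5, beside granule enzymes. Mpo, myeloperoxidase, was at 303, 27.8, 328, 161, 18.4 and 968 CPM in E18.5 replicates 1 to 6 and 56.6, 61.8, 68.6 and 61.3 CPM at E12.5, and did not pass (log2 fold change 2.30 ± 0.96 SE, adjusted p = 0.1 by edgeR). Ctsg, a serine protease of the same granules, was at 218, 97.3, 593, 212, 4.59 and 94.0 CPM in E18.5 replicates 1 to 6 and 2.02, 7.49, 0 and 4.38 CPM in the E12.5 libraries (log2 fold change 5.48 ± 1.67 SE, adjusted p = 0.027 by edgeR), and it did not pass without E12.5 replicates 1, 2, 3 and 4 or E18.5 replicate 3 in turn, at 4.82 to 6.22. Of the 5 tested genes of this list 1 passed, while the mature granulocyte markers S100a9, Ngp and Retnlg had 0 UMIs at both ages. Erythroid markers summed to 3070.2 CPM in E18.5 replicate 6, where globin Hba-a2 was at 1737 CPM, and none of 3 passed. Border and yolk sac macrophage markers summed to 1594 to 2227 CPM at E18.5 and 906 to 1804 CPM at E12.5, with 1 of 11, Maf, higher (9.09%, against 11.1% of all tested genes), and the count was 2 without E12.5 replicates 1 and 2 or E18.5 replicates 1, 2, 3 and 5 in turn, 0 without E12.5 replicates 3 and 4 in turn and 3 without E18.5 replicate 4. Monocyte markers summed to 5.53 to 212 CPM at E18.5 and 17.5 to 48.7 CPM in E12.5 libraries. Ly6c2, the tested gene of that list, had 89 UMIs at E18.5 and 5 at E12.5 and did not pass (log2 fold change 4.43 ± 1.85 SE, adjusted p = 0.0998 by edgeR), but DESeq2 called it, while the chemokine receptor Ccr2 had 0 and 2 UMIs. Nes, an intermediate filament of neural progenitors, fell from 403, 487, 419.9 and 350.2 CPM to a range of 82.0 to 201 CPM with a median of 138 (log2 fold change −1.58 ± 0.25 SE, adjusted p = 6.74e-06 by edgeR). Of the other radial glial and astrocyte genes, Slc1a3 was called higher on 13 UMIs against 0 (edgeR adjusted p = 0.00185). Among those too low to test, named after their counts were seen, Sox9 had 0 and 19 UMIs at E18.5 and E12.5, Hes5 1 and 16, Sox2 0 and 7, and Fabp7 0 and 0. Cd34, of blood progenitors, fell from 169 ± 29.9 to 66.7 ± 18.0 CPM (log2 fold change −1.32 ± 0.26 SE, adjusted p = 1.59e-04 by edgeR). Without the cells that held at least 2 UMIs of these blood and border markers, 460 genes were called higher and 415 lower over fewer cells, and 12 immediate early, 27 homeostatic and 39 respiratory chain genes were called higher, higher and lower in turn.

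The plates of an age differed too. In a fit with a mean per plate, edgeR called 617 of 4016 genes (15.4%) between the E12.5 plates, which also differ in sequencing batch, and 91 (2.27%) among the 3 E18.5 plates of a single batch. Of the genes called with age in both fits, 22.5% were also called between the E12.5 plates (40.5% of the plate calls) and 2.25% among the E18.5 plates (27.5%). Between the E18.5 plates of replicates 3 and 4 and of replicates 5 and 6, 107 genes were called, and 78 of them were also called between the E12.5 plates (72.9% of the first list and 12.6% of the second). All 78 had the same sign when the plate of E12.5 replicates 3 and 4 was set against that of replicates 1 and 2, and the plate of E18.5 replicates 5 and 6 against that of replicates 3 and 4. The other pairs of E18.5 plates shared fewer genes with the E12.5 plates. With replicates 5 and 6 set against replicates 1 and 2, 44 genes were called, and 36 were also called between the E12.5 plates, 34 of them with the same sign. With replicates 3 and 4 set against replicates 1 and 2, 12 were called, and 9 were shared, 0 with the same sign. Among the 78 genes, the macrophage lysozyme row of Lyz1 and Lyz2, near-identical genes, was at 386, 504, 42.8 and 56.9 CPM at E12.5 and 446, 396, 719, 636, 165 and 116 CPM at E18.5, and the protease Ctss at 4202, 3901, 1414 and 1221 CPM and 4797, 4587, 5969, 5894, 3345 and 2406 CPM. Neither row was called with age. Of the 78 genes, 13 were called higher at E18.5 and 1 lower, against 11.1% and 13.4% of all tested genes. The labels do not say how the plates differ, and the source of this shared plate difference was not tested.

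**Figure D5:**
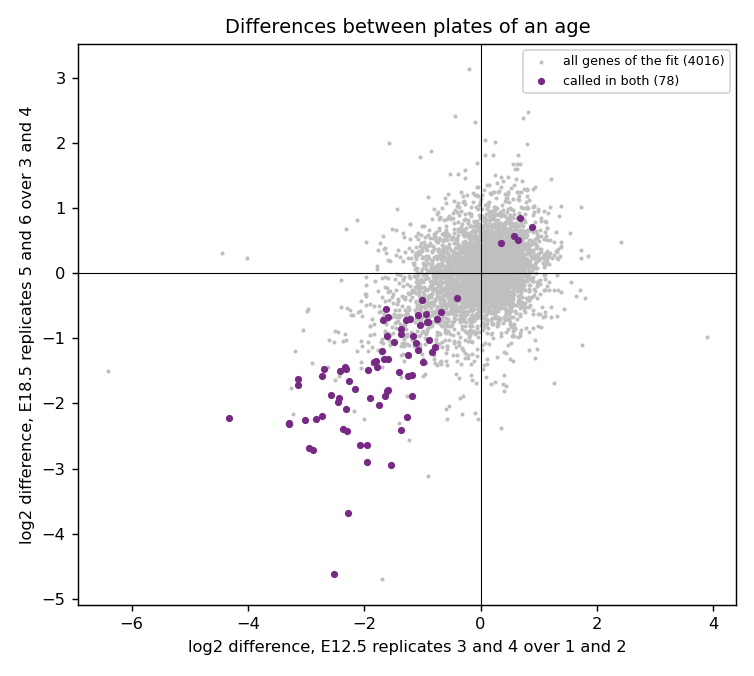
Log2 difference between the 2 E12.5 plates, replicates 3 and 4 over replicates 1 and 2 (horizontal axis), against that between 2 E18.5 plates, replicates 5 and 6 over replicates 3 and 4 (vertical axis), 1 point per gene. Grey points are all 4016 genes of the fit and purple points the 78 genes that edgeR called in both. The purple points lie in the lower left and upper right corners, and 73 of them are in the lower left.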

How the data were processed

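Single cells were sorted into plates and profiled by MARS-seq, which tags each transcript with a UMI. The authors deposited UMI counts per gene and well, with a table of the wells, per the file headers, and no normalization had been applied to these counts. The submitters' processing notes name bcl2fastq 2.15.0.4 and the mouse build mm9, while the choice of aligner, annotation and strand setting is not given in the sources used here. Rows that join several symbols (2109 of 27297) were kept as 1 row, so reads of their genes cannot be told apart. No spike-in rows were used. Some genes are not reported here.

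Wells with 1 cell and at least 300 UMIs were summed per library. The 1710 cells used gave 143876 to 534219 UMIs per library. Floors cover counting error only, while intervals come from the edgeR test and also reflect library-to-library spread. Replicate numbers follow accession order and pair nothing. Genes were filtered with filterByExpr and tested with edgeR 4.0.16 in R 4.3.3 (TMM factors, glmQLFit and glmQLFTest over all 18 libraries with a mean per group), with Benjamini-Hochberg adjusted p-values over all tested genes. Counts per list cover its tested members only. SE is the log2 fold change divided by the root of the test's F statistic, and intervals cover 95%. The test was checked on simulated data. Plates were compared in a fit with a mean per plate. Depth was compared with two-sided exact permutation tests in scipy 1.17.1. For shares of cells each cell was thinned to 300 UMIs. Alternatives were DESeq2 1.42.0, other scalings, gene and cell filters, thinning, a correction for tags used more than once with 256 possible tags, sequencing batch as a covariate, counts per plate, single E12.5 plates, cells left out by class and each library left out in turn.

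The comparison, gene lists and tests were chosen with earlier results of these data known. Named genes were taken per list by size of change, at most 4 called in the direction with more calls, at most 2 in the other, and the uncalled member of highest level, and besides these the largest rises, falls, gains and losses and the most abundant steady genes; those already described in an earlier account, or resting on 1 library, could be passed over for the next by rank. Promoters and gene starts come from RefSeq's GRCm38.p6, and no coordinates were taken from mm9.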

Additional observations from a re-analysis of the deposited data

Results flagged for a closer look

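The values of each named gene and each list sum were examined in the libraries of an age, 434 groups in all, and 22 held a library whose gap to its nearest neighbour was too large a part of the range by Dixon's criterion. Chance alone marks about 1 in 20 such groups. The highest E18.5 library stood apart for Cd34 (100.9 CPM) in replicate 1, Ptpn6 (973 CPM) in replicate 2, Ctsg (593 CPM) and Hspa5 (921 CPM) in replicate 3, Il6st (294 CPM) and Rela (193 CPM) in replicate 5, Ccng2 (138 CPM), Hba-a2 (1737 CPM), Mpo (968 CPM) and Rhob (658 CPM) in replicate 6. The lowest E18.5 library stood apart for Rgs2 (499 CPM) in replicate 1, Slc25a45 (218 CPM) and Tlr2 (155 CPM) in replicate 4. The highest E12.5 library stood apart for Ccl2 (14.2 CPM) in replicate 1, Tspan7 (11.2 CPM) in replicate 2, Ccl6 (219 CPM) in replicate 4. The lowest E12.5 library stood apart for Cd14 (65.7 CPM) in replicate 4.

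Summed levels stood apart in the same way for 5 lists. Growth factor and cytokine receptors had an E12.5 library low at 8426 CPM, and G protein-coupled and purinergic receptors an E18.5 library low at 2987 CPM. Nucleotide synthesis genes had an E18.5 library low at 1640.3 CPM and mitotic genes an E12.5 library high at 5051 CPM. Erythroid markers reached 3070.2 CPM in E18.5 replicate 6, which was also the highest library for Hba-a2 and Mpo.

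Wells that received no cell were outside the comparison. The fullest held 80 UMIs on the E12.5 plates and 39 UMIs on the E18.5 plates, below the 300 UMIs asked of a cell.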

How the results depend on the processing

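The edgeR count of 1195 genes (543 higher, 652 lower) fell with several alternatives. It was 332 with sequencing batch as a covariate (148 and 184), 660 with counts summed per plate (352 and 308), 647 with libraries thinned to 1 total (316 and 331), 468 with cells thinned to 300 UMIs (232 and 236), 642 with only E12.5 replicates 1 and 2 (360 and 282), against 1204 with only replicates 3 and 4 (561 and 643), and 571 when the log2 fold change also had to reach 1 (329 and 242). It was 784 without cells that held replication or mitosis UMIs, of which 385 were lower, and 415 were lower without cells that held UMIs of other lineages. Thinning removes UMIs and the fold requirement removes genes by construction, and for the others the cause was not tested. With 1 library left out in turn it was 930 to 1118. DESeq2 called 1166, and RLE scaling 1163. Between the E12.5 plates 304 genes reached that fold change too.

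The lower depth per cell at E18.5 lost its call without E12.5 replicate 1 or 2, where the exact test gives p = 0.0714 for both. The difference was −1091 to −656 UMIs per cell and −476 to −284 genes per cell with 1 library left out in turn. Of 152 named genes, 122 were called, 117 of them without each library in turn and 58 in the same direction under every alternative that gives a value. The batch covariate, which rests on yolk sac cells, left 43 of the 122 without a call and alone turned a direction: Sall1 (−2.12), Serpine2 (−3.05), Atf4 (−0.11), Olfml3 (−0.011), Cx3cr1 (−0.0084) and Myd88 (0.037). The shares of cells with early transcripts were 85.4% and 35.5% without thinning. No paired analysis was possible because the replicate numbers follow accession order.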
